A study of Mus musculus with 4 samples.

Results

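The clustered protocadherin locus was taken as the interval from 36.95 to 38.1 Mb of mouse chromosome 18 (mm9, a length of 1.15 Mb). Its members were all CTCF peaks with a midpoint in that interval. There were 29 of the 36381 peaks listed in B cells and 26 of the 31086 peaks listed in plasmablasts. A peak counted as shared if at least 1 bp of it was also covered by a peak listed in the other cell type. Together they made up 36 separate sites, of which 19 were listed in both cell types within the interval, 10 in B cells only and 6 in plasmablasts only. The remaining site lay across the lower bound, with its plasmablast peak inside and the overlapping B cell peak outside.

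CTCF is a zinc finger protein that binds DNA, blocks the spread of enhancer activity and anchors chromatin loops together with cohesin. The clustered protocadherins are cell adhesion proteins of the cadherin superfamily, known for giving single neurons distinct surface identities. Each variable exon of the alpha and gamma clusters carries its own promoter and is spliced to constant exons shared by the cluster, whereas the beta genes have no constant exons. In neurons, CTCF is known to bind many of these promoters and the enhancers that choose among them. Pcdha4, Pcdhb1 and Pcdhga1 are members of the alpha, beta and gamma clusters. In the RefSeq gene table (assembly GRCm38) the alpha cluster, with 14 genes from Pcdha1 to Pcdhac2, comes first on the chromosome. The beta cluster, with 22 genes from Pcdhb1 to Pcdhb22, comes next, and the genes Slc25a2 and Taf7 lie between it and the gamma cluster. The gamma cluster, with 22 genes of which 21 are protein coding, runs from Pcdhga1 to Pcdhgc5 and is followed by Diaph1 and Hdac3. The peaks are on mm9, a different build, so which peak lies at which gene or promoter was not determined, and distances along the interval are given instead.

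Chromatin was immunoprecipitated with a CTCF antibody in 2 cell types of C57BL/6 mice aged 6 weeks, with 1 CTCF library and 1 input library per cell type. Splenic B cells were the CD43- fraction of the spleen. They came with no treatment named in the labels. Plasmablasts, which divide and secrete antibody after B cell activation, were isolated by flow cytometry as CD138+ cells of the spleen 3 days after 50 µg of lipopolysaccharide was injected behind the eye. The labels do not say whether animals were pooled. The listed width of a member was 305 bp in B cells and 179 bp in plasmablasts. The depth of the libraries is unknown. With 1 library per cell type no spread between replicates and no p-value exist, and the cell types also differed in sequencing instrument, so cell type, instrument and library cannot be told apart. Peak scores are the authors' own values on scales that differ between the lists. Strength is therefore given as the percentile of a score within its own list, with 100 the strongest.

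CTCF peaks were listed very unevenly along the protocadherin interval, and both cell types had the same crowded end. The first 850 kb held 4 B cell and 6 plasmablast peaks. The next 150 kb, from 850 to 1000 kb, held 16 B cell and 12 plasmablast peaks, and the last 150 kb held 9 and 8. These last 300 kb thus carried 25 of the 29 B cell peaks and 20 of the 26 plasmablast peaks. In the gene table the gamma cluster and its neighbour Diaph1 are the later genes in this direction. Of the 23 consecutive bins of 50 kb, 14 had no B cell peak, 13 no plasmablast peak and 12 neither. Autosomal windows of 150 kb held a median of 1 peak in each list, so empty bins alone do not set the interval apart. The bin from 950 to 1000 kb held 6 B cell and 7 plasmablast peaks, and that from 1050 to 1100 kb held 6 in each list. No other bin held more than 5. The stretches of 850 and 150 kb were chosen after the counts were seen.

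**Figure D1:**
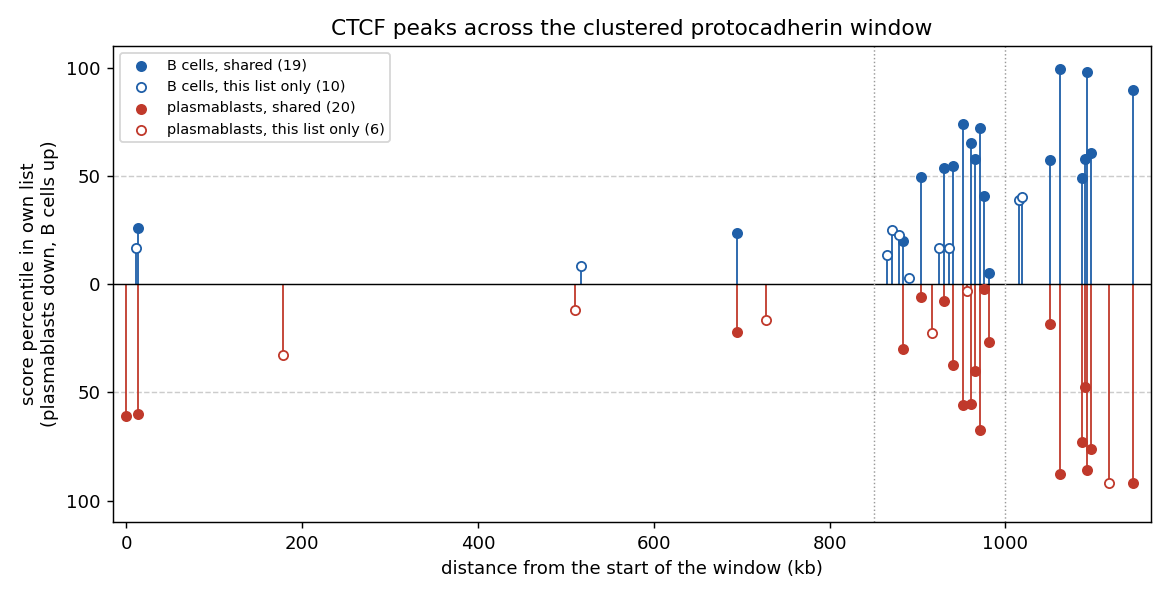
Score percentile of every CTCF peak of the interval (vertical axis, within its own list; B cells in blue upward, plasmablasts in red downward) against the distance from the start of the interval in kb; filled points are shared peaks, open points are listed in that cell type only, dashed lines mark percentile 50 and dotted lines the bounds at 850 and 1000 kb. The first 850 kb holds 4 B cell and 6 plasmablast peaks, and the strongest peaks stand in the last 150 kb.

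**Figure D2:**
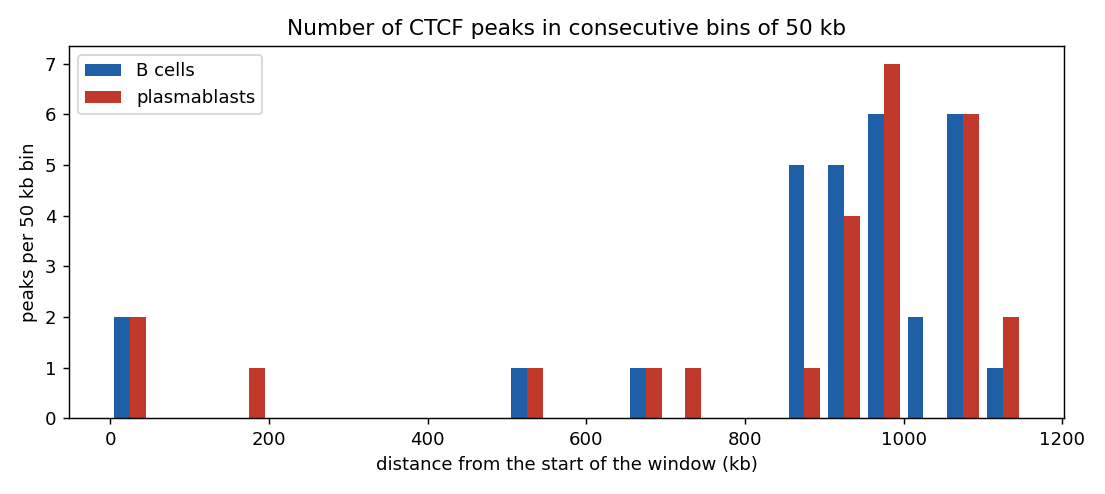
Number of CTCF peaks in each of 23 bins of 50 kb along the interval (horizontal axis in kb from its start) in B cells (blue) and plasmablasts (red). The bins from 950 to 1000 kb (6 and 7 peaks) and from 1050 to 1100 kb (6 and 6) are the fullest, and 12 bins are empty in both lists.

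Taken as a whole, the interval was not sparse in CTCF peaks. It held 25.2 peaks per Mb in B cells and 22.6 in plasmablasts. Non-overlapping autosomal windows of the same length had a median of 12 peaks in B cells (quartiles 2 and 26, 2134 windows) and 11 in plasmablasts (quartiles 3 and 21, 2137 windows). Of these windows, 78.7% held fewer than the 29 B cell peaks and 81.5% fewer than the 26 plasmablast peaks. The adjoining 1.15 Mb before the locus was denser, with 61 B cell and 49 plasmablast peaks, and that after it had 34 and 32. The stretch from 850 to 1000 kb stood much higher among windows of its own length. Only 15 of 16435 autosomal windows of 150 kb held at least 16 B cell peaks (0.0913%), and 73 of 16461 held at least 12 plasmablast peaks (0.443%). This rank is a description, because the stretch was placed where the peaks are. The first 850 kb was nearer the middle by the same measure: 35.5% of autosomal windows of 850 kb held fewer than 4 B cell peaks and 43.0% fewer than 6 plasmablast peaks.

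**Figure D3:**
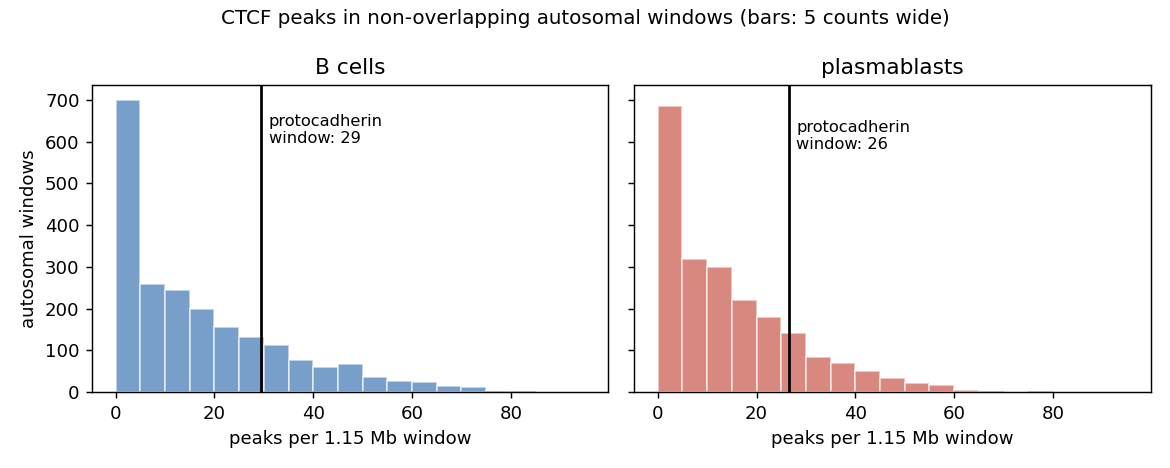
Number of peaks per window (horizontal axis) in non-overlapping autosomal windows of 1.15 Mb, with the number of windows on the vertical axis, for B cells (left, 2134 windows) and plasmablasts (right, 2137 windows); the black line marks the protocadherin interval. Its 29 and 26 peaks lie above the medians of 12 and 11.

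The first 850 kb had scattered and mostly weak sites. No B cell peak in it reached the median score of the B cell list. At 36962594 to 36962898 the B cell peak scored 28.7 (percentile 26.1), and the plasmablast peak at 36962565 to 36962743 scored 25.6 (percentile 59.8). This site was therefore ranked far higher among plasmablast peaks than among B cell peaks. A second B cell peak, at 36961132 to 36961436 (score 22.2, percentile 16.9), lay 1.46 kb before it and had no plasmablast partner. These formed the only run of peaks in the interval with a gap of at most 2 kb, in either list. The site nearest the lower bound was the plasmablast peak at 36949930 to 36950108, with a score of 26.5 (percentile 61.1). Its overlapping B cell peak, at 36949814 to 36950118 with a score of 56.5 (percentile 47.3), had its midpoint 34.5 bp outside the interval. At the upper bound the first peaks outside lay 16.0 kb away in both lists, and they scored 140.8 in B cells and 8.0 in plasmablasts.

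Between these sites and the crowded end lay long stretches without a listed peak. In B cells the longest ran from 36962898 to 37466922, a distance of 504.3 kb between midpoints. Of 35667 gaps between neighbouring autosomal B cell peaks, 669 were longer (1.88%). The B cell peak that ended it, at 37466922 to 37467226, scored 17.6 (percentile 8.55) and was not shared. In plasmablasts the longest gap was 332.5 kb, from 37127954 to 37460321, and 1193 of 30216 autosomal gaps were longer (3.95%). The plasmablast peak before it, at 37127776 to 37127954, scored 11.9 (percentile 32.7) and lay 165.1 kb from any B cell midpoint. The peak after it, at 37460321 to 37460499, scored 6.8 (percentile 12.1), and its nearest B cell midpoint was 6.66 kb away. The intervals of these weak neighbours did not touch. The 1 other shared site of this stretch, at 37644434 to 37644738, was weak in both cell types, with a score of 26.9 in B cells (percentile 23.7) and 8.9 in plasmablasts (percentile 22).

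From 850 to 1000 kb the peaks formed a close series. In B cells, 16 peaks from 37815103 to 37931935 followed each other at distances of 4.15 to 20.4 kb between midpoints, with a median of 5.98 kb. Of the 15 distances, 11 lay between 4 and 8 kb. The median distance between neighbouring autosomal B cell peaks was 19.6 kb. In plasmablasts the series had 12 peaks from 37833832 to 37931891, at distances of 4.14 to 20.04 kb and with a median of 6.25 kb, against an autosomal median of 25.04 kb. The stretch was placed where the peaks are, so short distances within it follow in part from that choice. Over the whole interval the median distance was 6.18 kb in B cells and 12.6 kb in plasmablasts. Distances under 10 kb made up 60.7% and 36.0% of those in the interval, against 30.4% and 27.1% over the autosomes. When autosomal peaks at most 25 kb apart were joined into runs, 68 of 15235 B cell runs had at least 16 peaks and 52 of 15146 plasmablast runs had at least 12. Single peaks count as runs here, and 7553 B cell and 6770 plasmablast runs had at least 2 peaks. The 25 kb limit was added to a planned limit of 2 kb. It exceeds every distance within the series, so each series was certain to stay joined.

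Within this series the number of B cell peaks with a plasmablast partner differed between bins. From 850 to 900 kb 1 of 5 B cell peaks was shared, from 900 to 950 kb 3 of 5, and from 950 to 1000 kb all 6, against 67.9% of all B cell peaks. The plasmablast list showed no such order, with 1 of 1, 3 of 4 and 6 of 7 peaks shared, against 79.5% of all plasmablast peaks. The median percentile of the B cell peaks also rose from bin to bin, at 19.8, 49.6 and 61.4. Of all B cell peaks above the median score 93.9% were shared, and whether the bins differ at like score was not tested. The 6 unshared B cell peaks of the series were weak, with scores from 13.9 to 27.8. The highest of them were at 37821258 to 37821562 (score 27.8, percentile 24.9) and at 37828343 to 37828647 (score 25.9, percentile 22.4). Their nearest plasmablast midpoints lay 12.5 and 5.43 kb away. The only shared site from 850 to 900 kb was at 37833794 to 37834098, with a score of 24.1 in B cells (percentile 19.8) and 11 in plasmablasts (percentile 29.9). The 2 plasmablast peaks of the series with no B cell partner, at 37866563 to 37866741 (score 9.1, percentile 22.7) and 37906521 to 37906699 (score 4.6, percentile 2.98), were weak as well.

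The strongest sites of the series lay in the bin from 950 to 1000 kb. The peak at 37901534 to 37901838 scored 138.0 in B cells (percentile 73.9) and 23.0 in plasmablasts (percentile 55.8). The peak at 37921176 to 37921480 scored 131.5 in B cells (percentile 72.3) and 31.2 in plasmablasts (percentile 67.4). These were moderately strong sites of both lists, and no member of the series had a percentile above 73.9. Between them, the peak at 37911054 to 37911358 scored 103.7 (percentile 65.1) and 22.8 (percentile 55.5). The peak at 37915201 to 37915505 scored 80.6 (percentile 57.6) and 14.8 (percentile 40.3).

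Several members of the series held a middle rank in B cells and a rank near the bottom in plasmablasts. The site at 37879843 to 37880147 scored 70.4 in B cells (percentile 53.8) and 5.9 in plasmablasts (percentile 7.70), a difference of -46.1 percentile points. The site at 37853866 to 37854170 scored 61.1 (percentile 49.6) and 5.5 (percentile 6.12), a difference of -43.5. The site at 37925421 to 37925725 scored 45.4 (percentile 40.8) and 4.3 (percentile 2.04), a difference of -38.8. All 3 still had a plasmablast peak within 55 bp of the B cell midpoint, so the site itself was listed in both cell types. Shared sites of the whole genome with a B cell percentile within 5 points of these had median plasmablast percentiles of 42.8, 39.4 and 32.2, in that order. Of those comparable sites, 6.32%, 5.68% and 2.11% ranked lower in plasmablasts than the member did. The 3 sites were picked for their large differences, so low shares follow in part from that choice. Matched instead on plasmablast rank, the sites were not extreme: 81.0%, 74.0% and 59.5% of shared sites within 5 plasmablast percentile points ranked lower in B cells. The last site of the series, at 37931631 to 37931935, ranked higher in plasmablasts, with a score of 15.7 in B cells (percentile 5.17) and 10.1 in plasmablasts (percentile 26.7). Sites of like B cell rank had a median plasmablast percentile of 19.1, and 65.9% of them lay below this site.

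The last 150 kb carried the strongest CTCF sites of the interval. The highest B cell score was 316.8 at 38011809 to 38012113 (percentile 99.3), and the plasmablast peak there scored 51.8 (percentile 87.8). The next was at 38043135 to 38043439, with 277.9 in B cells (percentile 97.9) and 49.1 in plasmablasts (percentile 85.7). The third was at 38095176 to 38095480, with 213.9 in B cells (percentile 89.5) and 58.9 in plasmablasts (percentile 92.1). The last of these had the highest plasmablast score of the interval. These 3 sites ranked high in both lists, and they had the highest mean percentiles of the 19 shared sites.

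The site at 38043135 was part of a close group of 4 B cell peaks between 38037006 and 38046994, all of them shared. The outer members of the group ranked higher in plasmablasts than in B cells. The peak at 38037006 to 38037310 scored 60.2 in B cells (percentile 49.1) and 35.8 in plasmablasts (percentile 72.9). The peak at 38046690 to 38046994 scored 88.0 (percentile 60.3) and 38.6 (percentile 76.0). Among genome-wide shared sites of like B cell rank, 90.9% and 86.8% ranked lower in plasmablasts than these sites. Among those of like plasmablast rank, 10.6% and 18.6% ranked lower in B cells. Both sites were picked for their large differences, so these shares are descriptions only. The remaining member, at 38039913 to 38040217, scored 80.6 (percentile 57.6) and 18.2 (percentile 47.5), close to the median of 46.5 for comparable sites.

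The opposite order was seen before this group, at 38000978 to 38001282. There the B cell score was 79.7 (percentile 57.3) and the plasmablast score 8.0 (percentile 18.3), a difference of -39.0 points. The 2 B cell peaks before it, at 37965806 to 37966110 (score 42.6, percentile 38.8) and 37968436 to 37968740 (score 44.5, percentile 40.1), lay 34.2 and 32.5 kb from the nearest plasmablast midpoint. They were the highest ranked of the 10 unshared B cell peaks. The next in order were the 2 given above at 37821258 and 37828343. The fifth rank was tied at a score of 22.2 by the peak at 36961132 and by those at 37874255 to 37874559 and 37885255 to 37885559.

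The strongest site listed in a single cell type was a plasmablast peak, at 38067798 to 38067976. It scored 58.0 (percentile 91.7), the second highest plasmablast score of the interval, and the nearest B cell midpoint lay 21.0 kb away. Of all plasmablast peaks within 5 percentile points of it, 95.6% were shared. Among the 6384 unshared plasmablast peaks of the genome, 68 scored at least as high, and 8 of these, this one included, lay at least as far from a B cell midpoint. The peak was picked as the highest scoring unshared plasmablast member, so these values follow in part from that choice and are descriptions only. The other 5 unshared plasmablast peaks of the interval were below the median of their list, at scores from 4.6 to 11.9. They included the peak at 37677835 to 37678013 (score 7.7, percentile 16.7), 33.3 kb from the nearest B cell midpoint. Since the calling threshold and the depth are unknown, the lack of a B cell peak here is not evidence that CTCF was missing.

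Over the whole interval, the share of listed sites common to both cell types was close to that of the whole lists. In B cells 19 of 29 peaks were shared (65.5%, exact Clopper-Pearson 95% binomial interval 45.7 to 82.1%), against 67.9% of all B cell peaks. In plasmablasts 20 of 26 were shared (76.9%, interval 56.4 to 91.0%), against 79.5% of all plasmablast peaks. The intervals cover counting error only. Peaks of the whole lists in the same score deciles as the members were shared in 61.0% and 76.5% of cases. On the rest of chromosome 18 the shares were 67.2% and 77.7%. In the adjoining 1.15 Mb before the locus they were 68.9% of 61 B cell peaks and 83.7% of 49 plasmablast peaks, and in that after it 85.3% of 34 and 90.6% of 32. The exact intervals of the latter were 68.94 to 95.05% and 74.98 to 98.02%. All these intervals are wide, their overlap with those of the locus decides nothing, and a difference was not tested. All 12 B cell members above the median score of their list were shared, and so were 10 of 11 such plasmablast members. The exception was the strong plasmablast peak at 38067798. Of all peaks above the median score, 93.9% were shared in the B cell list and 89.8% in the plasmablast list. The counts of the members are near this background.

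The median rank of the members was somewhat below the middle of their lists, although 12 of 29 B cell and 11 of 26 plasmablast members lay above it. Their median percentile was 40.8 in B cells (range 2.59 to 99.3) and 38.8 in plasmablasts (range 2.04 to 92.1). With the interval widened by 50 kb the medians were 47.3 and 38.8, and with it narrowed by 50 kb 45.0 and 31.3. The last 150 kb ranked highest in both lists. The median percentile was 20.3 in the first 850 kb, 32.9 in the next 150 kb and 57.6 in the last 150 kb of B cells. In plasmablasts these medians were 27.4, 28.3 and 80.9.

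At the 19 sites shared within the interval, midpoints lay close together but ranks moved in both directions. Overlap was required of shared sites, so close midpoints are in part given by that rule. Midpoints lay a median of 17 bp apart, as over all 24702 shared sites, and at most 92 bp. Of the 19 sites, 13 ranked lower in plasmablasts than in B cells (68.4%), against 66.1% of all shared sites. The median difference, plasmablast minus B cell, was -10.1 percentile points with quartiles of -17.7 and 6.31. Over all shared sites it was -7.16, with quartiles of -21.3 and 4.30. With percentiles taken among shared sites only, the median difference of the members was -0.35 points, so its size depends on the list behind the percentile. In whole-list percentiles, the members' median difference lay within the quartiles of all shared sites. Those quartiles describe single sites, so whether the medians differ was not tested. Sites that ranked lower in plasmablasts by at least 30 points were 4 of the 19 (21.1%), against 14.4% of all shared sites. Those that ranked higher by at least 30 points were 1 of the 19 (5.26%), against 4.09% of all shared sites. Compared with genome-wide shared sites of like B cell rank, 10 members lay below their median plasmablast percentile and 9 above it. Across the 19 sites the scores of the cell types had a Spearman rank correlation of 0.68, against 0.70 over all shared sites. The correlation is a description over sites that share 2 libraries.

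**Figure D4:**
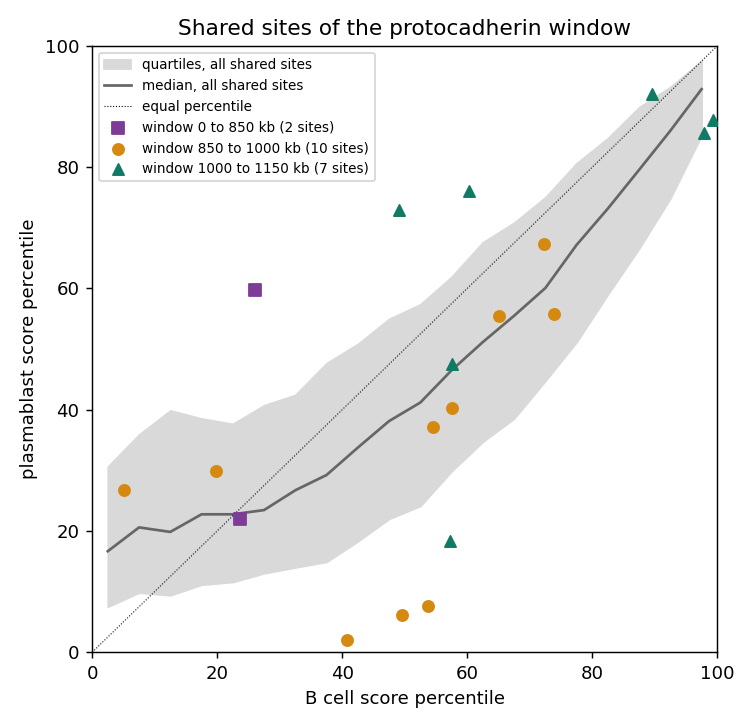
Plasmablast score percentile (vertical axis) against B cell score percentile (horizontal axis) of the 19 shared sites, with squares for the first 850 kb, circles for 850 to 1000 kb and triangles for 1000 to 1150 kb; the grey line and band are the median and quartiles of all shared sites in steps of 5 percentile points, and the dotted line marks equal percentiles. The circles at B cell percentiles of 40.8, 49.6 and 53.8 fall far below the band, and the triangle at 57.3 also lies below it. The triangles at 49.1 and 60.3 and the square at 26.1 lie above it.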

How the data were processed

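Peak lists of 1 CTCF library per cell type were analysed, and input libraries were not analysed here. The submitters' processing notes name Bowtie, HOMER and build mm9. For tool versions, calling thresholds and any role of the input, nothing is stated in the sources used here. The score is the authors' deposited value, with no unit stated, and was used only as a rank within its list (mid-rank percentile). Starts were taken as BED starts and are printed 1-based. Overlap, percentiles, gaps and non-overlapping windows counted from each chromosome start were computed in Python 3.11.15 with numpy 2.4.6, pandas 2.3.3, scipy 1.17.1 and matplotlib 3.10.9, and the overlap was tested on simulated data. Windows cover autosomes up to the last peak. Peaks were given in full by rule: the 5 shared sites of highest mean percentile, the 5 largest percentile differences each way, the 5 strongest unshared peaks per list and the ends of the longest gap; further members were named after their values were seen. The members and comparisons were chosen with earlier results of these data known. Gene names and order came from the RefSeq table on GRCm38, without its coordinates. Alternatives changed the overlap rule, list length, interval bounds and the list behind the percentile.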

Additional observations from a re-analysis of the deposited data

How the results depend on the processing

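Of 38 alternatives to 7 results, 33 stayed within the binomial interval of the share or of the median, or within 1.5 times the peak number, 4 moved and 1 was reversed. The number planned was also 33, but these are not the same 33. The unplanned ones were single stretches of the interval and the shares of the whole lists at the members' score deciles. Those shares describe other peaks and are no new analysis of the members. The reversed result came from an unplanned stretch. The shared percentage of B cell members was 100% for the 12 peaks at or above the list's median score. That of plasmablast members was 50% when each list was shortened to its 10000 highest scoring peaks, with 6 members left. The B cell share under this cut was 75%, with 4 members left, and stayed within its interval. The share over all peaks of the shortened lists is not given here, so these values have no background beside them. With members at or above the median score, density fell to 10.4 peaks per Mb in B cells and 9.57 in plasmablasts, since fewer peaks were counted. The median percentile difference, plasmablast minus B cell, was 16.0 points in the first 850 kb, which rests on 2 sites, against -17.3 and -10.1 in the next stretches. Ranked among shared sites only, it was -0.35. Bounds moved by 50 kb left each share, median and density within its margin. No paired analysis was possible because each cell type had 1 CTCF library, so leaving out a replicate was not possible either. The unknown depth limits every statement on a missing peak.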

Other observations

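The authors' peak names carry a running number per chromosome. In B cells these numbers followed the score closely, with a Spearman rank correlation of -0.99995 across the 989 peaks of chromosome 18. In plasmablasts it was -0.98 across 855 peaks, so the naming and the score order differ in that list. The plasmablast-only peak at 38067798 to 38067976 carries the number 159, whereas chromosome 18 peaks with a score within 10% of its own have a median number of 85.5 (range 14 to 200, 48 peaks including it).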
